A study of Homo sapiens with 8 samples.

Results

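Ferroptosis is a form of cell death in which iron drives the peroxidation of polyunsaturated fatty acids in membrane lipids. Cells hold it off with enzymes that reduce lipid peroxides or trap lipid radicals, by choosing which fatty acids enter their phospholipids, and by locking iron inside ferritin. Low-density lipoprotein (LDL) delivers fatty acids as well as cholesterol, so the genes of this defence were examined in cells given LDL. The 8 genes described here are GPX4, SLC7A11 and AIFM2 (peroxide and radical defence), ACSL3 and ACSL4 (fatty acid activation), and FTH1, FTL and TFRC (iron storage and uptake). They were taken by name from a gene table of 22554 features, and all 8 were found.

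The cells were SKOV3, an established human ovarian cancer line, so all 8 libraries are of a single line. Samples 1 to 4 of the LDL group had received LDL at 50 µg/mL for 48 h, and samples 1 to 4 of the control group had ordinary medium. Both groups grew in McCoy's 5A medium with fetal bovine serum, which itself carries lipoproteins. Whether the 4 samples of each group came from separate cultures is not on the labels. The p-values therefore rest on the spread among the samples as they are, which could be technical. In RNA from a whole culture, fewer cells of a kind and less RNA per cell cannot be told apart.

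Total counts ran from 37189698 to 44883561 in control and from 34682501 to 36780334 in LDL libraries, and the 8 genes had 481 counts or more in each. LDL samples 1 and 4 stood apart. LDL sample 4 held the highest level of the 8 libraries for 20% of the 15432 genes tested and the lowest for 19.7%, LDL sample 1 for 16.1% and 15.7%, and the other 6 libraries for 8.69% to 13.9%. Results are therefore also given without them where that matters. Of 10 marker genes of the epithelial line, among them ERBB2, KRT8 and PAX8, none was at 0 in every library, although WT1 had at most 14 counts. Their summed level was 6550 to 6940 CPM in control and 6620 to 7050 CPM in LDL libraries. Of 8 red cell markers, a type rich in iron genes, HBB and AHSP were among those at 0 throughout and the summed level reached 0.516 CPM. The summed level of 8 fibroblast markers, mostly COL1A1, was 387 to 406 CPM in control and 173 to 445 CPM in LDL libraries. COL1A1 was at 146 CPM in LDL sample 4 and at 343.4 to 398 CPM in the other 7 libraries, and its part in the results was not tested. Levels in CPM are counts scaled to a common library size with TMM factors.

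Iron reaches these transcripts through a hairpin, the iron-responsive element (IRE), which binds iron regulatory proteins when iron is scarce. Bound in the 5′ untranslated region of a ferritin mRNA it blocks translation, and bound in the 3′ untranslated region of the transferrin receptor mRNA it protects the message from decay. A search of 1 GENCODE transcript of each gene on GRCh38 found the element in FTH1, FTL and TFRC and in none of the other 5 genes. The pattern was a C, 5 bases, the 6-base loop CAGTGN and 5 bases able to pair with the first 5, on the sense strand, with the loop CAGAGN as a variant. The sites are shown because they are what links the 3 iron genes, with the loop in capitals and 27 bases each.

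FTH1 5′ site: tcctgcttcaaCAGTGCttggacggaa
FTL 5′ site: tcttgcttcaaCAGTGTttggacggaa
TFRC 3′ site 1: tttatcagtgaCAGAGTtcactataaa
TFRC 3′ site 2: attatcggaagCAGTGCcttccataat
TFRC 3′ site 3: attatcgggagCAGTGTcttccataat
TFRC 3′ site 4: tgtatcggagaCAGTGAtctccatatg
TFRC 3′ site 5: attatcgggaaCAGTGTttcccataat

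The ferritin sites share 25 of 27 bases. That of FTH1 lies at chr11:61967575-61967601 on the minus strand, 149 bases before the start codon, and that of FTL at chr19:48965336-48965362 on the plus strand, 145 bases before it. The 5 TFRC sites lie between chr3:196050464 and 196051056 on the minus strand, beyond the end of the coding part. TFRC had 4 hairpins with the CAGTG loop, and no other gene of the 19639 searched had more than 3. At least 1 such hairpin was found in 1.32% of them. A match is a description of the letters and shows no binding.

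**Figure D1:**
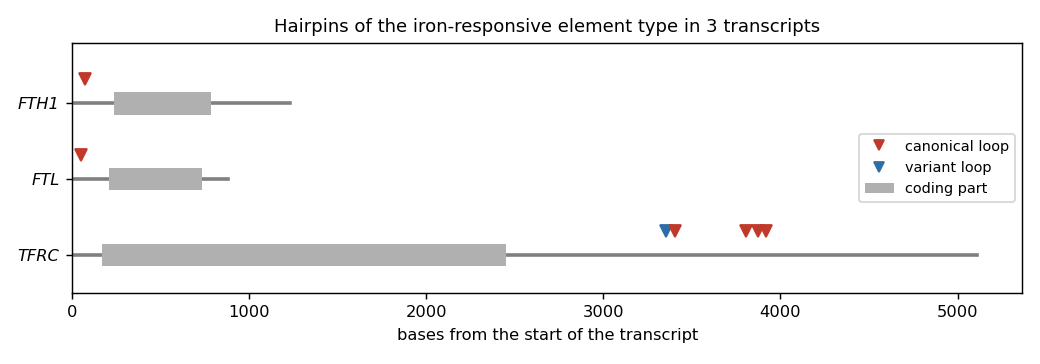
Position of the hairpins (triangles) along 3 transcripts, in bases from the transcript start, with the coding part as a grey block. FTH1 and FTL each carry 1 hairpin before the coding part, and TFRC carries 5 after it, the first with the variant loop.

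GPX4, which reduces phospholipid peroxides with glutathione, is a selenoprotein, and its message carries an in-frame stop triplet that is read as selenocysteine at the catalytic site. The annotated codon is number 73 of 197 and is shown in capitals within 63 coding bases, at chr19:1105373-1105435 on the plus strand, because the activity that defines this defence depends on it.

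GPX4 coding part: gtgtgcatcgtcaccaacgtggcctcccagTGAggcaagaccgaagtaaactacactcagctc

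None of the 8 genes passed the test between LDL and control samples. In edgeR's quasi-likelihood test their adjusted p-values ran from 0.876 to 0.987, against 0.0648% of all genes tested that passed at 0.05 (0.0259% higher, 0.0389% lower). At an unadjusted p under 0.05 there were 2 of the 8, ACSL3 and FTL, both higher, where 5.59% of all genes were (2.88% higher, 2.72% lower). DESeq2, limma voom and limma on FPKM values (fragments relative to the length of the gene and the size of the library) also called 0 of the 8; DESeq2 called 0.259% of the genes it tested and voom 0.0518%. The groups overlapped in all 8 genes, while 3.45% of all genes tested had groups that did not overlap (1.74% higher, 1.71% lower). The log2 fold change was above 0 in 7 of the 8, with a median of 0.12, compared with 52.3% of all genes tested and a median of 0.0060.

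**Figure D2:**
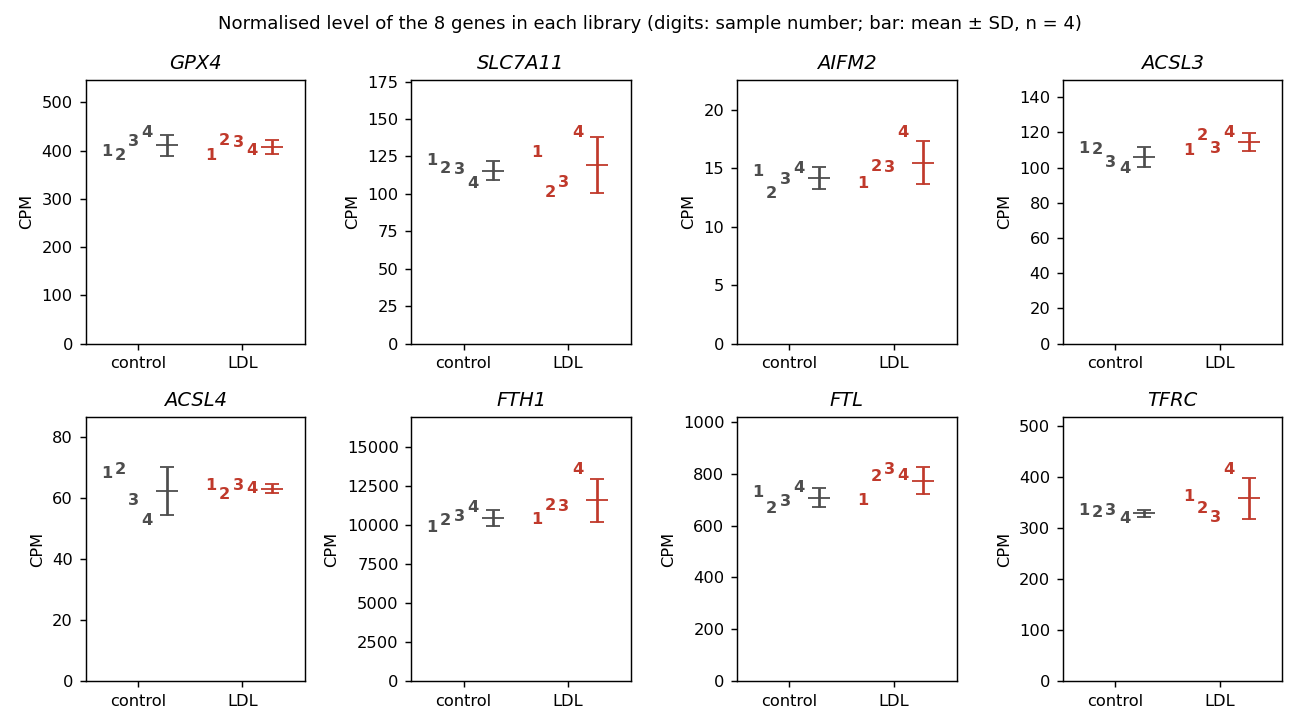
Level of each gene in CPM (vertical axes start at 0), with each library drawn as its sample number and the bar giving the mean ± SD of 4 libraries. Control and LDL libraries overlap in every panel, and LDL sample 4 is the highest library for SLC7A11, AIFM2, ACSL3, FTH1 and TFRC.

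Per unit of gene length, the 8 genes covered more than 3 orders of magnitude. FTH1 was the most abundant feature of the whole table, at 10970 ± 1080 FPKM (SD, n = 8), and FTL ranked 54 at 811.8 ± 58.5 FPKM. GPX4 followed at 478 ± 17.1 FPKM and TFRC at 65.54 ± 6.19 FPKM. ACSL3 stood at 20.33 ± 0.686 FPKM, ACSL4 at 12.24 ± 1.12 FPKM, SLC7A11 at 11.6 ± 1.35 FPKM and AIFM2 at 4.478 ± 0.477 FPKM. ACSL4 (10.02 to 13.48 FPKM) and SLC7A11 (9.919 to 13.95 FPKM) could not be ordered, since their ranges overlapped. The ranges of all other neighbours in this order were apart.

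The ferritin genes gave the highest fold (FTH1) and the lowest p (FTL) of the 8. FTH1 encodes the ferritin heavy chain, the subunit that oxidises iron for storage, and spans chr11:61959718-61967660 (minus strand, 4 exons). Its level was 9854, 10277, 10549 and 11144 CPM in controls 1 to 4, against 10348, 11273, 11170 and 13547 CPM with LDL, samples 1 to 4. LDL samples 2, 3 and 4 lay above all controls and LDL sample 1 lay among them. The means were 10456 ± 540.4 and 11585 ± 1372 CPM (SD, n = 4 each). That is 1.108-fold (log2 fold change 0.15, SE 0.071, 95% interval -0.0051 to 0.30, edgeR adjusted p = 0.879), and the exact two-sided permutation p was 0.143, where 4 against 4 samples can reach 0.0286. With LDL sample 4 left out, the log2 difference was 0.064. FTH1 alone made up 0.987% to 1.11% of all counts in control and 1.04% to 1.36% in LDL libraries, and no other feature had a higher count in any library.

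FTH1 shares its locus with another gene. BEST1, a chloride channel gene of the retina, spans chr11:61949821-61965515 on the opposite strand and overlaps FTH1 from 61959718 to 61965515. BEST1 had counts of 32874, 269, 661 and 29 in controls 1 to 4, against 356, 325, 29 and 298 with LDL, samples 1 to 4. Control sample 1 therefore stood far above the other 7 for BEST1, and it was also the library with the lowest level of FTH1 in CPM. In the deposited FPKM it was not the lowest. FTH1 was at 10691 FPKM in control sample 1, against 9975, 10142 and 10769 FPKM in controls 2 to 4. BEST1 itself did not pass the test (edgeR adjusted p = 0.879). Added together, the pair stood at 10651, 10285, 10566 and 11145 CPM in control and 10358, 11282, 11171 and 13555 CPM with LDL, a log2 fold change of 0.12 (SE 0.068, edgeR adjusted p = 0.882). With the sum, control sample 1 was no longer the lowest. How reads were divided between the 2 genes, and why counts and FPKM placed control sample 1 differently, were not tested.

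**Figure D3:**
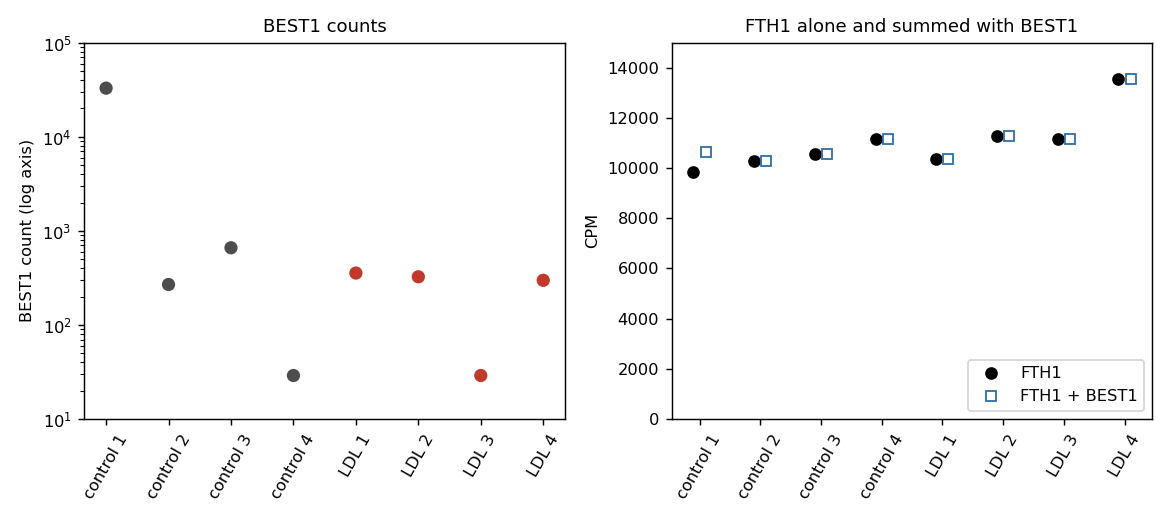
Left, counts of BEST1 in each library on a log axis (grey control, red LDL); right, the level of FTH1 in CPM alone (filled circles) and summed with BEST1 (open squares). BEST1 reaches 32874 counts in control sample 1 and at most 661 elsewhere, and the sum differs visibly from FTH1 only in that library.

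FTL, the ferritin light chain, which helps build the iron core, spans chr19:48965301-48966878 (plus strand, 4 exons). Its level was 727.4, 666, 694.4 and 749.7 CPM in the 4 controls, against 696.8, 791.5, 816.4 and 794.7 CPM with LDL. As for FTH1, LDL samples 2, 3 and 4 were above all controls and LDL sample 1 was not. With LDL it was 1.092-fold the control level (log2 fold change 0.13, SE 0.055, 95% interval 0.012 to 0.24, edgeR adjusted p = 0.876; exact permutation p = 0.0857). Without LDL samples 1 and 4, FTL was the only 1 of the 8 genes to pass (log2 fold change 0.18, edgeR adjusted p = 0.0463), in a fit that called 1.56% of all genes. Without LDL sample 1 alone it stayed short of the threshold (edgeR adjusted p = 0.0585). GENCODE lists 25 numbered FTH1 pseudogenes and 16 of FTL, none of them in the table, so reads that match a pseudogene as well leave both levels uncertain.

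The proportion of heavy to light chain message was narrow in the controls. The ratio of FTH1 to FTL in FPKM was 13.3, 13.7, 13.5 and 13.2 in the 4 controls, against 13.2, 12.7, 13.1 and 15.3 with LDL. LDL sample 4 lay above the controls, LDL samples 2 and 3 lay below them, and LDL sample 1 lay among them.

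TFRC encodes the transferrin receptor, which brings iron into the cell, and spans chr3:196027183-196082189 (minus strand, 19 exons). Its level was 333.5, 331.1, 333.8 and 319 CPM in the 4 controls, against 361, 337.6, 321.4 and 414.2 CPM with LDL. The controls lay within a narrow band (coefficient of variation 2.12%, against 11.3% in LDL samples), and LDL sample 3 fell inside it. With LDL it was 1.089-fold the control level (log2 fold change 0.12, SE 0.064, 95% interval -0.015 to 0.26, edgeR adjusted p = 0.882; exact permutation p = 0.2). It moved with the libraries that stood apart: the log2 fold change was 0.046 without LDL sample 4 and -0.0034 without LDL samples 1 and 4. Storage exceeded uptake by a wide margin in message level, with 159 to 178 FPKM of FTH1 per FPKM of TFRC in control and 147 to 192 in LDL libraries.

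GPX4 had the log2 fold change nearest to 0 of the 8 genes. It spans chr19:1103926-1106791 (plus strand, 7 exons). Its level was 397.4, 389, 419.2 and 437.6 CPM in the 4 controls, against 389.2, 420, 417.6 and 400.4 CPM with LDL. Every LDL library fell within the range of the controls. On the log2 scale the difference was -0.014 (SE 0.049, edgeR adjusted p = 0.982; exact permutation p = 0.857), and its 95% interval of -0.12 to 0.089 is the range of differences these samples allow. The sign turned without control sample 4 (0.016), without LDL sample 1 (0.0066) and without LDL samples 1 and 4 (0.024).

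SLC7A11 encodes the cystine importer subunit that feeds glutathione synthesis and spans chr4:138164097-138242349 (minus strand, 12 exons). Its level was 122.5, 116.8, 116.2 and 106.7 CPM in the 4 controls, against 127.7, 100.9, 107.4 and 141 CPM with LDL. LDL samples 1 and 4 were above all controls, LDL sample 2 was below all of them, and the SD was 6.54 CPM in control and 18.46 CPM with LDL (n = 4 each). On the log2 scale the difference was 0.046 (SE 0.096, 95% interval -0.17 to 0.26, edgeR adjusted p = 0.969; exact permutation p = 0.743). It was -0.045 without LDL sample 4 and -0.15 (edgeR adjusted p = 0.209) without LDL samples 1 and 4. GPX4 exceeded it by 38.2 to 48.3 times in FPKM in control and by 33.3 to 48.8 times in LDL libraries.

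AIFM2, also known as FSP1, regenerates the radical-trapping form of coenzyme Q without glutathione. It spans chr10:70098223-70132934 (minus strand, 9 exons). Its level was 14.71, 12.83, 14.03 and 14.95 CPM in the 4 controls, against 13.66, 15.14, 15.02 and 18.06 CPM with LDL. LDL samples 2 and 3 lay just above the highest control, LDL sample 4 well above it, and LDL sample 1 within the controls. With LDL it was 1.094-fold the control level (log2 fold change 0.13, SE 0.10, 95% interval -0.086 to 0.35, edgeR adjusted p = 0.907; exact permutation p = 0.257). With LDL sample 4 left out, the log2 difference was 0.047. The histone gene MACROH2A2 overlaps AIFM2 on the opposite strand, with 2431 to 3469 counts per library against 481 to 666 for AIFM2, and without the counting options their reads cannot be told apart.

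ACSL3 and ACSL4 attach coenzyme A to long-chain fatty acids. ACSL3 is known for monounsaturated fatty acids and lipid droplet growth, and ACSL4 for the polyunsaturated ones that peroxidise. ACSL3 spans chr2:222860934-222944639 (plus strand) and ACSL4 chrX:109624244-109733403 (minus strand), with 17 exons each.

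The level of ACSL3 was 111, 110.1, 102.7 and 99.43 CPM in the 4 controls, against 109.9, 118.2, 110.9 and 119.9 CPM with LDL. LDL samples 2 and 4 were above all controls, and LDL samples 1 and 3 were just below the highest of them. With LDL it was 1.084-fold the control level (log2 fold change 0.12, SE 0.054, 95% interval 0.0019 to 0.23, edgeR adjusted p = 0.878; exact permutation p = 0.143). On the log2(FPKM + 1) scale the change was 0.062.

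The level of ACSL4 was 68.03, 69.31, 59.33 and 52.77 CPM in the 4 controls, against 64.07, 61.2, 64.14 and 63.18 CPM with LDL. Here the spread lay in the controls, with a coefficient of variation of 12.5% against 2.17% in LDL samples, and all 4 LDL libraries sat inside the control range. On the log2 scale the difference was 0.019 (SE 0.076, 95% interval -0.14 to 0.18, edgeR adjusted p = 0.987; exact permutation p = 0.857), and it turned to -0.055 without control sample 4 and -0.0045 without control sample 3. The ratio of ACSL4 to ACSL3 in FPKM was 0.527 to 0.672 in control and 0.555 to 0.615 in LDL libraries, so the LDL values lay within those of the controls.

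Single libraries differed in which of the 8 genes stood high. LDL sample 4 held the highest level of 5 of them, and it held the highest of 20% of all genes tested. Relative to its own control mean on the log2 scale, FTH1 was at 0.38, AIFM2 at 0.36, TFRC at 0.33 and SLC7A11 at 0.29 in that library. GPX4 (-0.036) and ACSL4 (0.028) were not raised there. In LDL sample 1, SLC7A11 (0.15) and TFRC (0.13) were above their control means, while FTH1, FTL and AIFM2 lay between -0.047 and -0.014. In LDL samples 2 and 3 the order was the reverse, with FTH1, FTL and AIFM2 at 0.091 to 0.20 and SLC7A11 at -0.19 and -0.10. TFRC was near its control mean in these libraries, at 0.036 and -0.035. The labels name no batch, and what sets LDL samples 1 and 4 apart was not tested.

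**Figure D4:**
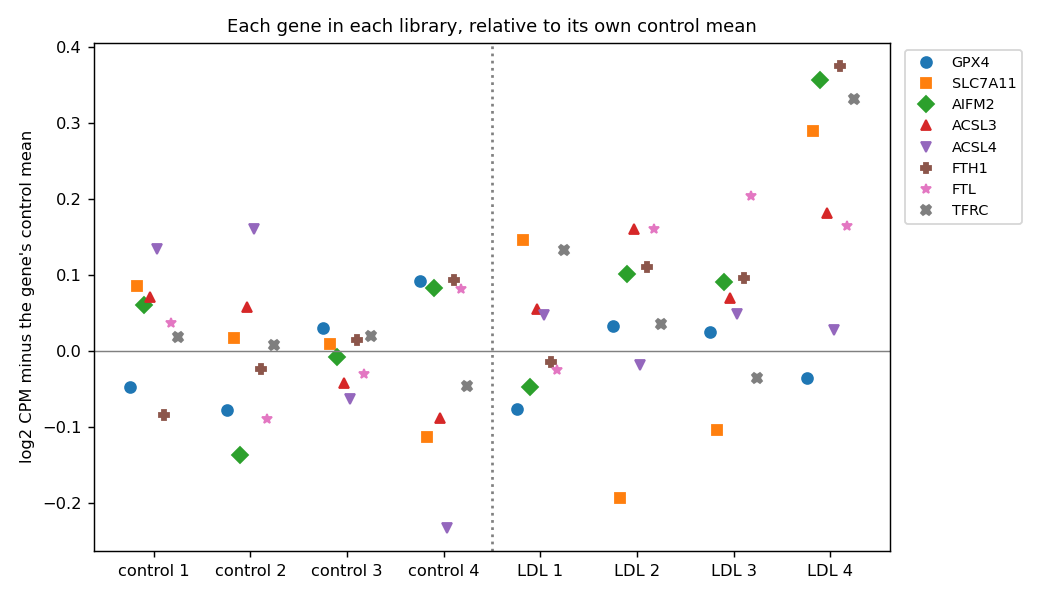
Level of each gene in each library as log2 CPM minus the gene's mean over the 4 controls (horizontal line at 0). LDL sample 4 holds FTH1, AIFM2, TFRC and SLC7A11 at 0.29 to 0.38, while GPX4 and ACSL4 stay near 0.

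For each gene, the gene most like it was sought among 15431 others by Pearson's r of log2 CPM over the 8 libraries, as a description. TFRC was most like MTHFD2, an enzyme of mitochondrial folate metabolism (r = 0.982), FTH1 like IGFBP6, which binds insulin-like growth factors (r = 0.984), and FTL like PPIH, a splicing cyclophilin (r = 0.973). ACSL4 was most like RAB6A, a GTPase of Golgi traffic (r = 0.981), ACSL3 like SANBR (r = 0.978), SLC7A11 like the engulfment adaptor gene GULP1 (r = 0.982) and GPX4 like ELMOD1 (r = 0.958), which had under 1 CPM. AIFM2 was most like an assembled feature with no gene name (r = 0.984). Each is the best of 15431 genes over only 8 libraries, so no p is given.

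The wider pathway was read from 12 lists with 143 genes, of which 126 had enough counts to be tested. Apart from the 8 genes, 118 of 135 were tested. In edgeR 0 of the 118 passed in either direction and 11 had an unadjusted p under 0.05, or 9.32% against 5.59% of all genes. DESeq2 called 1 of them, NCOA4, and limma voom called 0. Their median log2 fold change was 0.016 (0.0060 over all genes), with 71 above and 47 below 0.

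NCOA4, the receptor that carries ferritin to the lysosome so that its iron is released, came nearest to the threshold. Its level was 317.8, 314.4, 309.9 and 310.1 CPM in the 4 controls, against 287.4, 268.8, 257.4 and 258 CPM with LDL. All 4 LDL libraries lay below all 4 controls, as in 1.71% of all genes tested, and LDL sample 1 was the closest to the controls. The ratio was 0.856 (log2 fold change -0.22, SE 0.047, edgeR adjusted p = 0.131), and DESeq2 gave an adjusted p of 0.00103. The log2 fold change stayed between -0.26 and -0.21 over all the settings tried, with adjusted p-values from 0.00103 to 0.566, and edgeR called it without LDL sample 1 (adjusted p = 0.0047). In the storage and turnover list, with 8 of 10 genes tested, FTH1, FTL and 3 others had a log2 fold change above 0 and the median was 0.016. HERC2, a ubiquitin ligase that acts on NCOA4, stood at 82.58 ± 2.465 CPM in the controls, against 75.49 ± 11.76 CPM with LDL (SD, n = 4 each). It did not pass (edgeR adjusted p = 0.884), and it was at 92.93 CPM in LDL sample 1 and 67.31 to 71.55 CPM in the other LDL samples. The log2 fold change of HERC2 was -0.13, and it passed at -0.24 without LDL sample 1 (edgeR adjusted p = 0.0334) and at -0.22 without LDL samples 1 and 4 (edgeR adjusted p = 0.0399), while it was -0.078 without LDL sample 4. The fit without LDL sample 1 called 0.954% of all genes and that without LDL samples 1 and 4 called 1.56%, against 0.0648% with all samples.

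**Figure D5:**
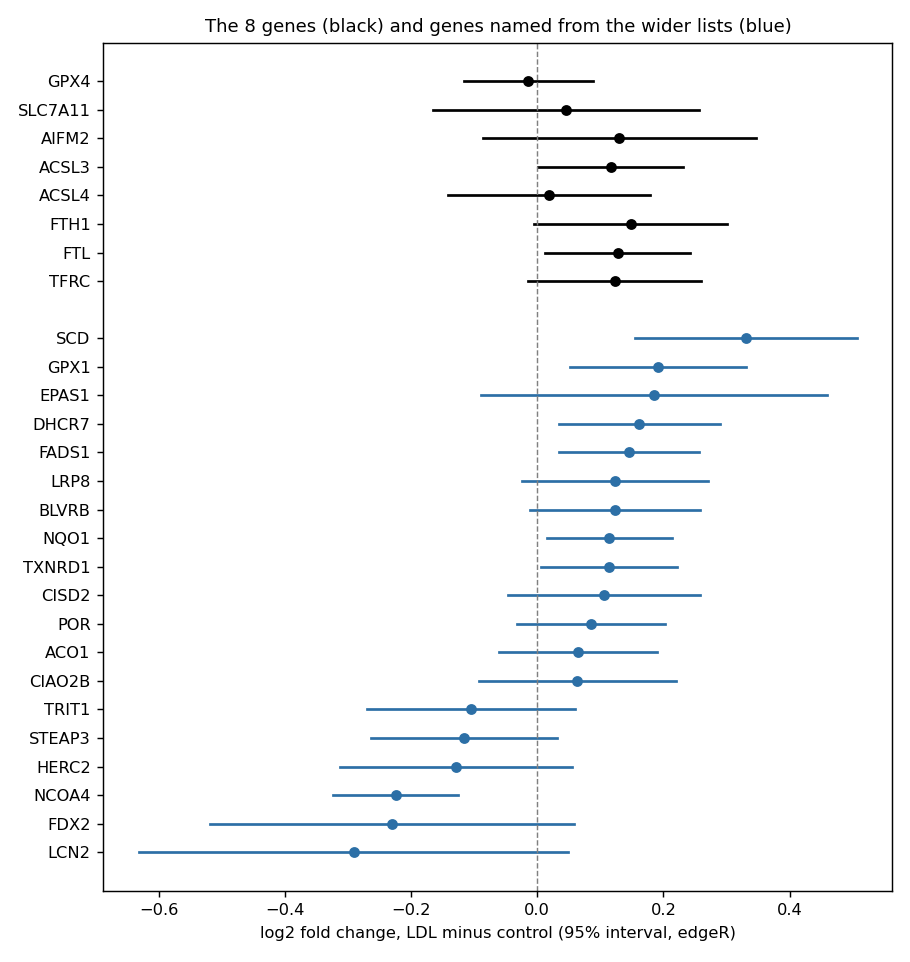
Log2 fold change (LDL minus control) with its 95% interval from edgeR for the 8 genes (black) and for the genes named from the wider lists whose SE was under 0.2 (blue). The intervals of 6 of the 8 genes span 0, those of ACSL3 and FTL just miss it, and NCOA4 at -0.22 and SCD at 0.33 lie farthest from 0 relative to their intervals.

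Uptake and export held 12 tested genes of 17, none of which passed; 7 had a log2 fold change above 0 and the median was 0.056. The siderophore-binding protein gene LCN2 stood at 64.49 ± 8.185 CPM in the controls, against 52.71 ± 9.526 CPM with LDL. LDL sample 4 was at 38.58 CPM, and without it the log2 fold change of LCN2 went from -0.29 to -0.17. STEAP3, the ferrireductase of transferrin endosomes, stood at 26.62 ± 1.413 and 24.55 ± 0.33 CPM (SD, n = 4 each), with all LDL libraries below the controls but an edgeR adjusted p of 0.884. Its relative STEAP1 had all LDL libraries above the controls, at 4.573 ± 0.4694 and 5.286 ± 0.4571 CPM, and an edgeR adjusted p of 0.884. These were the only 2 of the 12 without overlap, where 3.45% of all genes tested had none (1.74% higher, 1.71% lower). SLC40A1, the iron exporter ferroportin, was low, at 1.13 ± 0.2447 and 1.525 ± 0.5735 CPM. HAMP, the hormone hepcidin, and HEPHL1 had a count of 0 in every library, which allows up to 3 counts in each.

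Among transcripts known to carry an IRE or to answer to iron, 9 of 10 genes were tested. The log2 fold change was above 0 in all 9, with a median of 0.13, where 52.3% of all genes tested were above 0. FTH1, FTL and TFRC, already described, are among the 9. None of the 9 passed (1 at an unadjusted p under 0.05, FTL). The highest value, 0.43 for SLC40A1, was 0.16 without LDL sample 3, which held 2.307 CPM. EPAS1, a hypoxia-inducible factor gene, stood at 55.15 ± 2.698 and 62.68 ± 12.89 CPM, with LDL sample 4 at 80.92 CPM and a log2 fold change of 0.038 without it. This direction depended on the libraries: 6 of the 9 were above 0 without LDL sample 1 and 5 without LDL samples 1 and 4. The iron regulatory proteins and their sensors had a median of -0.033 over 7 tested genes, none of which passed. ACO1, which becomes iron regulatory protein 1, was at a log2 fold change of 0.065 and CIAO2B, of the cytosolic iron-sulphur machinery, at 0.063.

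In the glutathione and cystine arm 10 of 12 tested genes were above 0, with a median of 0.038, and none passed. CHAC1, which degrades glutathione and is a known marker of ferroptosis inducers, stood at 5.995 ± 0.6372 and 8.981 ± 3.711 CPM (SD, n = 4 each; edgeR adjusted p = 0.876). LDL sample 4 stood at 14.35 CPM and the other LDL samples at 6.437 to 8.565 CPM. With that sample left out the log2 fold change was 0.26. TXNRD1, a thioredoxin reductase, stood at 441.6 ± 8.131 and 478 ± 34.32 CPM. Of 8 glutathione peroxidase genes 4 were tested. GPX1, the cytosolic family member, stood at 200.8, 200.6, 203.4 and 211.7 CPM in the 4 controls, against 205.4, 225.6, 232.5 and 268.7 CPM with LDL (log2 fold change 0.19, edgeR adjusted p = 0.784), and it passed without LDL sample 1 (0.25, edgeR adjusted p = 0.0387, where 0.954% of all genes did). Without LDL sample 4, its highest library, the log2 fold change of GPX1 was 0.12 and it did not pass (edgeR adjusted p = 0.9), nor did it without LDL samples 1 and 4 (0.16, edgeR adjusted p = 0.0782). GPX3 was near 0.5 CPM in both groups.

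Radical trapping apart from GPX4 gave 19 tested genes, 9 above and 10 below 0, with a median of -0.024. The groups did not overlap for 3 of the 19 (3.45% of all genes tested), of which 2 were higher with LDL and 1 lower. The higher ones were DHCR7, whose loss raises the radical-trapping sterol 7-dehydrocholesterol (41.73 ± 1.468 in the controls, against 46.68 ± 1.818 CPM with LDL), and the quinone reductase gene NQO1 (232.9 ± 10.08 and 252.1 ± 7.61 CPM; SD, n = 4 each). The lower one was VKORC1L1, a vitamin K reductase (44.41 ± 1.871 and 41.02 ± 1.744 CPM). None of them passed (edgeR adjusted p = 0.822, 0.849 and 0.882).

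Fatty acid supply held 15 tested genes with a median of 0.014. SCD, the desaturase that makes monounsaturated fatty acids, stood at 57.73, 59.01, 55.82 and 59.91 CPM in the 4 controls, against 89.01, 66.58, 66.53 and 70.1 CPM with LDL. All LDL libraries were above all controls (log2 fold change 0.33, SE 0.082), but SCD did not pass (edgeR adjusted p = 0.353). FADS1, a desaturase of polyunsaturated fatty acids, was likewise without overlap at 127.1 ± 3.535 and 140.5 ± 8.641 CPM (edgeR adjusted p = 0.817, n = 4 each). SCD and FADS1 were the only 2 of the 15 without overlap, where 3.45% of all genes tested had none (1.74% higher). Of the lipid peroxidation enzymes 8 of 11 were tested, with a median of 0.034 and none passing. POR, the oxidoreductase of the endoplasmic reticulum, stood at 75.81 ± 3.028 and 80.42 ± 3.881 CPM, PTGS2 was under 1 CPM, and ALOX15 had counts of 0 in 7 libraries and 4 in LDL sample 4.

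Haem genes (15 tested, median 0.019), mitochondrial iron genes (13 tested, median 0.028) and genes of selenoprotein synthesis (10 tested, median 0.0040) likewise gave no gene past the threshold. Among them BLVRB, a biliverdin reductase, was at a log2 fold change of 0.12, the haem-exporting transporter gene ABCG2 at -0.74 with under 1 CPM, FDX2, a mitochondrial ferredoxin, at -0.23 and CISD2 at 0.11. LRP8, a receptor for selenoprotein P, was at 0.12 (0.079 without LDL sample 1) and the tRNA-modifying enzyme gene TRIT1 at -0.10, which turned to 0.15 or 0.16 on FPKM values. FECH, the last enzyme of haem synthesis, was the only gene of its list without overlap (1 of 15 tested, where 3.45% of all genes tested had none). It stood at 84.5 ± 1.581 and 79.74 ± 2.329 CPM (SD, n = 4 each, edgeR adjusted p = 0.884).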

How the data were processed

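RNA of SKOV3 cells went into libraries made with a stranded mRNA kit, per the labels' protocols. Per the submitters' processing notes, GRCh38, featureCounts, HISAT2 and DESeq2 1.26.0 were used, with no role stated. The annotation and the counter's options are not given in these sources. The authors deposited counts and FPKM for 22554 features. The counts were handled as estimated counts, because 55.17% of deposited values from 1 to 20 were even and 2557 features carry assembly names; they were already whole. The authors' deposited FPKM, scaled to length and library size, gave levels between genes and alternatives. The chi-square per degree of freedom between 2 libraries of 1 group was 6.84 to 28.9, more than sampling alone gives, and all 8 were kept as samples.

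All features were fitted with edgeR 4.0.16 in R 4.3.3 (TMM, filterByExpr, 15432 tested, robust quasi-likelihood, group only; Benjamini-Hochberg, 0.05). The test was checked on simulated counts. It called 30.5% of genes changed 1.25-fold and 64.1% of those changed 1.5-fold, and 7.32% of its calls were unchanged genes. The changed genes were drawn at random from all genes tested, so these shares do not give the power for the 8 genes in particular. The highest fold of the 8 genes was 1.108, under the smallest fold simulated, so changes of their size could well be missed. Single genes had exact two-sided permutation tests of log2 CPM. Positions, transcripts and hairpins came from GENCODE 29. Named genes were the 8, any gene past the threshold in each list, and the gene most like each of the 8. Each list also gave the 2 tested genes outside the 8 with the smallest unadjusted p. BEST1, MACROH2A2, ALOX15, HAMP, HEPHL1, STEAP1, VKORC1L1, FECH, SELENOS, SELENOW, SELENON and DIO2 were chosen after their values were seen. The members and lists were chosen with earlier results of these data known. Alternatives were other scalings, filters, DESeq2 1.42.0, limma 3.58.1 (voom, or log2(FPKM + 1 or 0.1)), the sample number as a block and each sample left out; chosen after seeing the data were leaving out LDL samples 1 and 4 together and adding BEST1 to FTH1.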

Additional observations from a re-analysis of the deposited data

How the results depend on the processing

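None of the 8 genes passed in any alternative except FTL, the 1 called without LDL samples 1 and 4. Over all genes, 4 were called higher and 6 lower. DESeq2 called 15 and 28, limma voom 2 higher, log2(FPKM + 1) with a minimum 2 and 2, log2(FPKM + 0.1) 1 and 1, log2(FPKM + 1) with no minimum 2 and 1, and the fit without LDL samples 1 and 4 gave 108 and 140. With each sample left out in turn, 1 to 47 were higher and 1 to 102 lower; the highest values came without LDL sample 1, and without LDL sample 4 there were 12 and 14. Of the 126 listed genes, DESeq2 called 1 (NCOA4), where it called 0.259% of the genes it tested. The fits with 1 sample left out called 0 to 3 (GPX1, HERC2 and NCOA4 without LDL sample 1, where 0.954% of all genes were called). The fit without LDL samples 1 and 4 called 3 (FTL, HERC2 and NCOA4), where 1.56% of all genes were called. Of the 9 iron-responsive transcripts, 5 were above 0 in that last fit.

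With the replicate number as a block, 1 gene was higher and 1 lower, and it called 0 of the 8. Same-numbered samples did not deviate together (r of their deviations -0.0959, -0.00348, 0.0229 and -0.0137 for numbers 1 to 4), and control sample 1 was closest to LDL sample 4 (0.0921), so the numbers are taken as names only.

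Directions turned as follows on the log2 scale, and the cause was not tested. Without control sample 3, ACSL4 was at -0.00447 and GPX3 at 0.0193. Without control sample 4, GPX4 was at 0.016, ACSL4 at -0.0554, ELMOD1 at 0.297, GULP1 at -0.0177 and RAB6A at -0.00712. Without LDL sample 1, GPX4 was at 0.00659, ELMOD1 at 0.059 and GULP1 at -0.0262. Without LDL sample 3, PTGS2 was at -0.0173. Without LDL sample 4, SLC7A11 was at -0.0447, GPX3 at 0.00707 and GULP1 at -0.0572. Without LDL samples 1 and 4, GPX4 was at 0.0237, SLC7A11 at -0.154, TFRC at -0.00343, EPAS1 at -0.0454, ELMOD1 at 0.274, GULP1 at -0.21 and MTHFD2 at -0.00573. On FPKM values, TRIT1 was at 0.146 with a pseudocount of 1 and 0.163 with 0.1, and GULP1 at -0.0299 and -0.0353. With 1 sample left out, the other ends of these ranges were -0.0393 for GPX4, 0.115 for SLC7A11, 0.073 for ACSL4, -0.587 for GPX3, 0.625 for PTGS2, -0.424 for ELMOD1, 0.122 for GULP1 and 0.0496 for RAB6A.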

Other observations

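GPX4 belongs to the selenoproteins, and GENCODE annotates a selenocysteine codon in 25 genes, a set drawn up after the data had been seen. Of these, 19 were tested and none passed; 4 had an unadjusted p under 0.05 in edgeR, all of them higher, where 2.88% of all genes were (5.59% in either direction). The log2 fold change was positive in 15 of the 19 and its median was 0.072 (52.3% above 0 and a median of 0.0060 over all genes), so GPX4 at -0.014 was among the 4 below 0. SELENOS, an endoplasmic reticulum protein of the degradation machinery, was at 0.21, GPX1 at 0.19, SELENOW at 0.18 and TXNRD1 at 0.11 (edgeR adjusted p = 0.822, 0.784, 0.83 and 0.878). SELENON, of the endoplasmic reticulum, was at -0.061 and the thyroid hormone deiodinase gene DIO2 at -0.24 with an SE of 0.28, its LDL sample 4 standing at 33.04 CPM and the other LDL samples at 70.72 to 80.87 CPM.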
